A study of Mus musculus with 6 samples.

Results

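Chemokines are small secreted proteins that attract leukocytes, and they act through receptors of the G-protein-coupled family. The genes described here are all those whose symbol in the array annotation is Ccl, Cxcl, Cx3cl, Ccr, Cxcr or Cx3cr followed directly by a digit. They number 48 of the 18193 genes with a probe set of their own, namely 32 ligands and 16 receptors. A gene measured by more than 1 probe set is represented by the brightest, by the mean over the 6 arrays. Another 4 probe sets list a chemokine gene among several symbols and were left out.

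RNA from islets of Langerhans was measured on 1-colour Affymetrix arrays in 2 groups of 3 mice, a different animal for each array. Controls were PPARbetafl/fl mice, which carry floxed alleles of Ppard, the gene of the fatty-acid-activated nuclear receptor PPAR-beta (also called PPAR-delta). The other group, labelled knockout, consisted of Pdx1Cre;PPARbetafl/fl littermates, with Cre recombinase under the Pdx1 promoter, which is active across the developing pancreas. All were 8 weeks old and of mixed SV 129/C57BL/6 background. No Cre-positive mice with intact Ppard were among them, so the deletion and the Cre transgene cannot be told apart. The labels call the material beta-cells, whereas the protocol describes whole islets freed with collagenase.

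Values are log2 expression values made by RMA, and differences are labelled-knockout minus control, with the standard error (SE) of the limma fit. The targeted gene did not read lower in the labelled-knockout group: Ppard was at 7.75, 7.56 and 7.12 on controls 1 to 3 and at 8.01, 8.20 and 7.70 on labelled-knockout arrays 1 to 3 (difference 0.49 ± 0.20, limma adjusted p = 0.377). No deleted exon is named, so this does not check the deletion, and the genotype rests on the labels. The islet hormone genes Ins2 (insulin, 13.85 ± 0.021 against 13.80 ± 0.082, SD, n = 3 each) and Iapp (amylin, 14.09 ± 0.031 against 14.10 ± 0.021) were bright in both groups. Exocrine content varied: the mean of 26 markers of acinar cells, which secrete digestive enzymes, was 6.75, 10.94 and 11.11 on controls 1 to 3 and 8.50, 5.72 and 5.84 on labelled-knockout arrays 1 to 3. Controls 2 and 3 were thus the richest in acinar RNA, and the differences of members with an unadjusted p under 0.05, and those of Ccl9 and Cxcl9, are also given with the acinar level as a covariate or against control 1 alone where they shift. The fit with control 1 alone assumes this array to vary like the labelled-knockout arrays.

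In inflamed islets, chemokines can come from the beta cells themselves as well as from resident macrophages, vessels and stroma. Ligands of the receptor CXCR3 are induced by interferons and attract activated T cells, ligands of CXCR2 are induced through the transcription factor NF-kB and attract neutrophils, and many CC ligands attract monocytes. The homeostatic chemokines are made without inflammation and position lymphocytes and other cells within tissues.

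Among the 32 ligands, Cxcl11 and Cxcl5 rose in the labelled-knockout group and Ccl27a fell, each with a limma p adjusted over all 45037 probe sets under 0.05. Over all genes, 0.852% rose and 0.247% fell. The other 29 ligands and all 16 receptors did not pass. An unadjusted p under 0.05 was found for 16 ligands and 2 receptors, against 14% of all genes. Without overlap between the groups, 10 ligands read higher on every labelled-knockout array (31.25% of ligands, against 12.1% of all genes) and 6 read lower (18.75%, against 9.06% of all genes). The median difference was 0.094 for ligands and -0.062 for receptors, beside 0.00196 over all genes, so the ligands lay on both sides of 0 rather than shifting together.

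**Figure D1:**
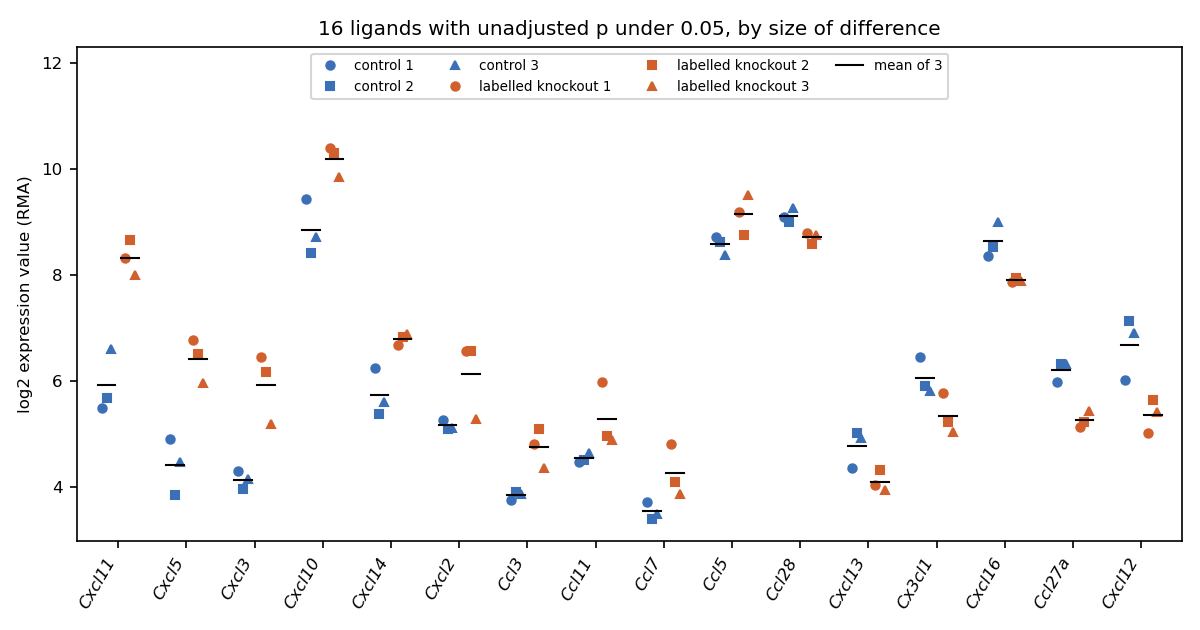
Log2 expression values (y axis) of the 16 ligands with an unadjusted p under 0.05, ordered by difference (x axis), with a point for each array and a bar for each group mean of 3 arrays. The groups are separate for all 16; Cxcl11 shows 8.00 to 8.66 on labelled-knockout arrays and 5.50 to 6.61 on controls, and 6 ligands read lower in the labelled-knockout group.

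Among the interferon-inducible ligands of CXCR3, Cxcl11 rose and had the largest difference of all members. The protein known under this name, I-TAC, also binds the scavenging receptor ACKR3. Its values were 5.50, 5.69 and 6.61 on controls 1 to 3 against 8.33, 8.66 and 8.00 on labelled-knockout arrays 1 to 3. Every labelled-knockout array lay above every control, and control 3 came closest. The group means, 5.93 ± 0.59 and 8.33 ± 0.33 (SD, n = 3 each), differed by 2.40 ± 0.31, which is 5.28-fold (adjusted p = 0.0232). Its second probe set rose as well, from 5.72 ± 0.28 to 7.27 ± 0.34 (1.54 ± 0.21, adjusted p = 0.0296).

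The size of the Cxcl11 rise was steadier than its call. With 1 array left out at a time the difference stayed between 2.18 and 2.74, and the call held without control 1 and without control 3. It was lost without control 2 (adjusted p = 0.0814) and without labelled-knockout array 1, 2 or 3 (adjusted p = 0.107, 0.106 and 0.0643). With the acinar level as a covariate the difference was 2.72 ± 0.39 (adjusted p = 0.0869). With control 1 as the sole control it was 2.83 ± 0.28 (adjusted p = 0.0657). RefSeq on GRCm38.p6, the C57BL/6J assembly, lists Cxcl11 as a transcribed pseudogene, so the arrays report a transcript and not a protein.

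Cxcl10 encodes the CXCR3 ligand IP-10. It was already well expressed in controls, at 9.44, 8.42 and 8.73, and read 10.40, 10.30 and 9.85 on the labelled-knockout arrays. The groups did not overlap, control 1 being the highest control. The difference of 1.32 ± 0.28 did not pass (adjusted p = 0.107). Without control 1 it was 1.61 and passed (adjusted p = 0.023), whereas against control 1 alone it was 0.74 ± 0.25 (adjusted p = 0.345).

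Cxcl9, the remaining CXCR3 ligand, was dim, with 2.88, 2.47 and 2.46 on controls against 2.88, 2.64 and 4.30. Only labelled-knockout array 3 stood apart (difference 0.67 ± 0.42, adjusted p = 0.559), and without it the difference was 0.16. It was 0.31 ± 0.54 with the acinar covariate and 0.40 ± 0.67 against control 1 alone. In the RefSeq gene order Cxcl10 and Cxcl11 are direct neighbours on chromosome 5, with 1 gene between Cxcl9 and Cxcl10. The receptor gene Cxcr3 measured 4.38 ± 0.094 in controls and 4.18 ± 0.17 in the labelled-knockout group (difference -0.20 ± 0.13, adjusted p = 0.561).

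The neutrophil-attracting ligands of CXCR2 split. Cxcl5 (LIX) rose, from 4.92, 3.86 and 4.48 on controls 1 to 3 to 6.78, 6.51 and 5.97 on labelled-knockout arrays 1 to 3. The groups were well apart, with control 2 the lowest of all arrays. The difference of 2.0 ± 0.31, or 4.0-fold, passed (adjusted p = 0.0439).

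Like that of Cxcl11, the Cxcl5 call was lost in most fits with 1 array left out. It held without control 1 and was lost without control 2 or 3 (adjusted p = 0.0814 and 0.163) and without labelled-knockout array 1, 2 or 3 (adjusted p = 0.164, 0.181 and 0.0716), with differences of 1.72 to 2.25. It was 1.81 ± 0.42 with the acinar covariate (adjusted p = 0.259). With control 1 as the sole control it was 1.5 ± 0.33 (adjusted p = 0.206).

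Cxcl3 and Cxcl2 (MIP-2) attract neutrophils through the same receptor. Cxcl3 read 4.30, 3.97 and 4.16 among controls against 6.46, 6.17 and 5.19 (difference 1.80 ± 0.32, adjusted p = 0.0625). Cxcl2 read 5.28, 5.11 and 5.13 against 6.57, 6.57 and 5.29 (difference 0.97 ± 0.34, adjusted p = 0.304). For both genes labelled-knockout array 3 was well below arrays 1 and 2, and for Cxcl2 it was level with control 1. Without that array both passed, at 2.17 for Cxcl3 (adjusted p = 0.0123) and 1.4 for Cxcl2 (adjusted p = 0.0204).

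Cxcl1 (KC), a further ligand of this receptor, was bright on all arrays, at 11.90, 11.77 and 11.20 among controls against 12.17, 11.54 and 10.96. The groups overlapped fully (difference -0.069 ± 0.33, adjusted p = 0.957), and its other probe sets differed by -0.11 ± 0.30 and -0.017 ± 0.34. Cxcl15 (lungkine) was dim, at 3.40 ± 0.11 against 3.52 ± 0.17, and so was the receptor gene Cxcr2, at 2.24 ± 0.058 against 2.45 ± 0.18.

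Cxcl5, Cxcl3, Cxcl15, Cxcl1 and Cxcl2 follow each other in this order on chromosome 5, with 2 genes between Cxcl5 and Cxcl3 and none between the others. RefSeq promoter windows were at hand for 22 of the 32 ligands, not including Cxcl11 and Cxcl5. The 4 ligands whose windows hold an NF-kB site are shown, chosen after the matches were seen, because their differences ran from -0.069 for Cxcl1 to 1.80 for Cxcl3. The 250 bases before each start are given on the strand of the gene in GRCm38.p6, from chr5:90890995-90891244, chr5:90903649-90903898 and chr5:90785851-90786100 (plus strand) and chr5:92348890-92349139 (minus strand). Capitals mark the NF-kB matches and, in Cxcl10, also an interferon-stimulated response element, the first of its pair of matches.
Cxcl1: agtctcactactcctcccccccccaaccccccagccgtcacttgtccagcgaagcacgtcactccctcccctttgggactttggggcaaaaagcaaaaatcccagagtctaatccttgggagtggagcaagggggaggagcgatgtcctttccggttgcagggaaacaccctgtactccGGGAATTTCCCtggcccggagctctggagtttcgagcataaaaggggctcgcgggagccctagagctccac
Cxcl2: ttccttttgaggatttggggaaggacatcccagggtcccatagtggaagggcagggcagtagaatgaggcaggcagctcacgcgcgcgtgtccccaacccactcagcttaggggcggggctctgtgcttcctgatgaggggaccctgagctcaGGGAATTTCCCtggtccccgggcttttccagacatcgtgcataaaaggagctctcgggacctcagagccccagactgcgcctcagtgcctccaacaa
Cxcl3: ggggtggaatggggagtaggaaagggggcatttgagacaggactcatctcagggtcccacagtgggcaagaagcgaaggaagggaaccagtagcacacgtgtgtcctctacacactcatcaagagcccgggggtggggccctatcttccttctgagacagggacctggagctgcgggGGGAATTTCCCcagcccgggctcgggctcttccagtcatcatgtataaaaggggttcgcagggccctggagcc
Cxcl10: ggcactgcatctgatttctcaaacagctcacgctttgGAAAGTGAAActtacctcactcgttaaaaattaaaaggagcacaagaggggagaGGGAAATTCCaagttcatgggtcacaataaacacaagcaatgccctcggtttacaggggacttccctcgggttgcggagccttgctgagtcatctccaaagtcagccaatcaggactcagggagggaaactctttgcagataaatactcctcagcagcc

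Cxcl1, Cxcl2 and Cxcl3 carry the same NF-kB letters, from position -71, -97 and -73 relative to the start. In them a spelling on the strand of the gene overlaps with a different spelling on the other strand. In Cxcl10 the NF-kB match begins at -159 and the interferon element at -213. Searched on both strands, the 4 NF-kB spellings occur in 0.408% of all 32851 windows of 300 bases and, among members, in these 4 ligands and the receptor gene Ccr3. The interferon element occurs in 3.44% of windows, and in Cxcl10 and Cxcl14 among members. The STAT letters TTCNNNGAA occur in 8.3% of windows, with Ccl17, Cxcl14, Ccr6 and Ccr1l1 among members. The PPAR response element, searched as a direct repeat spaced by 1 base, occurs in 0.0396% of windows and in 0 of the members' windows. A match or its absence describes letters only.

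Of the 11 CC ligands that attract monocytes and other inflammatory cells, 8 had higher and 3 lower means. Over all 18193 genes these numbers were 9165 and 9028. With limma 0 of the 11 passed. Of them, 4 had an unadjusted p under 0.05, beside 14% of all genes. Ccl3 (MIP-1 alpha) read 3.77, 3.92 and 3.87 among controls against 4.82, 5.11 and 4.37 (difference 0.91 ± 0.19, adjusted p = 0.104). The controls were tight and dim, and each labelled-knockout array lay above them. Its direct neighbour Ccl4 (MIP-1 beta), an attractant of monocytes and T cells, read 5.51, 5.33 and 5.48 against 5.61, 4.92 and 5.33 and overlapped (difference -0.16 ± 0.18, adjusted p = 0.778).

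Ccl5 (RANTES), an attractant of T cells and monocytes, was bright, at 8.72, 8.63 and 8.38 among controls against 9.19, 8.76 and 9.50 (difference 0.57 ± 0.20, adjusted p = 0.31). The groups were barely apart, labelled-knockout array 2 lying just above control 1. Ccl7 (MCP-3), which attracts monocytes, read 3.73, 3.41 and 3.51 against 4.82, 4.11 and 3.87 (difference 0.71 ± 0.25, adjusted p = 0.297). The eosinophil attractant Ccl11 (eotaxin) read 4.49, 4.51 and 4.66 against 5.99, 4.97 and 4.90 (difference 0.73 ± 0.29, adjusted p = 0.351). In Ccl7 and Ccl11 labelled-knockout array 1 was the highest, and without it the differences were 0.44 and 0.38. With the acinar covariate the differences of Ccl5, Ccl7 and Ccl11 were 0.49 ± 0.28, 0.84 ± 0.34 and 1.11 ± 0.33. Against control 1 alone they were 0.43, 0.53 and 0.80.

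Ccl2 (MCP-1), the main attractant of inflammatory monocytes, is the direct neighbour of Ccl7. It read 7.03, 6.89 and 7.15 among controls against 7.05, 6.87 and 6.81, and the groups overlapped (difference -0.11 ± 0.12, adjusted p = 0.756). Ccl9, a monocyte and dendritic cell attractant, read 5.63, 4.50 and 5.30 against 5.52, 5.92 and 5.52, with control 2 low (difference 0.51 ± 0.29, adjusted p = 0.522). The Ccl9 difference was 0.11 ± 0.32 with the acinar covariate, 0.025 ± 0.22 against control 1 alone and 0.19 to 0.76 with 1 array left out. Ccl24 (eotaxin-2) read 4.56, 4.72 and 4.65 against 4.35, 4.22 and 4.64, and labelled-knockout array 3 overlapped with the controls (difference -0.24 ± 0.14, adjusted p = 0.525). Ccl6, Ccl8 and Ccl12 were dim and differed by 0.086 ± 0.14, 0.056 ± 0.15 and 0.23 ± 0.26.

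Of the 6 homeostatic ligands 5 had lower means, beside 9028 of 18193 genes, 4 of them without overlap, beside 9.06% of all genes, and the median difference was -0.54. Ccl27a, an epithelial chemokine that attracts skin-homing T cells through CCR10, fell. Its values were 5.99, 6.33 and 6.32 on controls 1 to 3 against 5.13, 5.24 and 5.44 on labelled-knockout arrays 1 to 3, and the groups were clearly apart. The means, 6.21 ± 0.19 and 5.27 ± 0.15 (SD, n = 3 each), differed by -0.94 ± 0.14, a 1.92-fold lower level (adjusted p = 0.0397).

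The Ccl27a call held without control 1 only. It was lost without control 2 or 3 (adjusted p = 0.121 and 0.163) and without labelled-knockout array 1, 2 or 3 (adjusted p = 0.167, 0.167 and 0.0827), with differences of -1.05 to -0.88. It was -0.85 ± 0.19 with the acinar covariate (adjusted p = 0.246). With control 1 as the sole control it was -0.72 ± 0.18 (adjusted p = 0.239). A near-identical copy, Ccl27b, exists in mouse, so which copy gave the signal is uncertain. The receptor gene Ccr10 was dim and differed by -0.24 ± 0.13 (adjusted p = 0.508).

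Cxcl12 (SDF-1), the ligand of CXCR4 that retains progenitors in bone marrow, read 6.02, 7.13 and 6.90 among controls against 5.02, 5.64 and 5.42. The groups did not overlap, and control 1 was the lowest control. The difference of -1.32 ± 0.31 did not pass (adjusted p = 0.133). Without control 1 it was -1.65 and passed (adjusted p = 0.0215), whereas against control 1 alone it was -0.66 ± 0.27 (adjusted p = 0.41). Its dimmer probe sets differed by -0.22 ± 0.17 and -0.35 ± 0.12.

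Cxcl13, which guides B cells into follicles, showed the same order among controls, at 4.37, 5.03 and 4.94 against 4.05, 4.32 and 3.94 (difference -0.68 ± 0.20, adjusted p = 0.228). On this brightest probe set it was -0.41 ± 0.23 with the acinar covariate and -0.27 ± 0.20 against control 1 alone. The second probe set overlapped between the groups (difference -0.33 ± 0.28). On the brightest probe sets of Cxcl12 and Cxcl13 alike, controls 2 and 3, the richest in acinar RNA, stood highest. Beyond the fits given, the part of exocrine tissue was not tested.

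Ccl28, a mucosal epithelial chemokine, was bright, at 9.09, 9.0 and 9.27 among controls against 8.80, 8.58 and 8.75 (difference -0.41 ± 0.12, adjusted p = 0.227). Each labelled-knockout array lay a little below the controls, and the other probe sets differed by -0.47 ± 0.14 and -0.32 ± 0.18. Ccl25, the thymic and gut ligand of CCR9, overlapped fully, at 6.63, 7.0 and 7.09 against 6.44, 6.90 and 7.19 (difference -0.065 ± 0.22, adjusted p = 0.938).

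Cxcl14, an epithelial chemokine whose receptor is unsettled, was the homeostatic ligand with a higher mean. It read 6.25, 5.38 and 5.60 among controls against 6.68, 6.84 and 6.89 (difference 1.06 ± 0.23, adjusted p = 0.108). On this brightest probe set the labelled-knockout arrays were tight and control 1 was the nearest control. The dimmer second probe set overlapped between the groups (difference 0.53 ± 0.22, adjusted p = 0.391). On the brightest, the difference was 1.31 without control 1, where it passed (adjusted p = 0.012). It was 0.64 ± 0.18 with the acinar covariate (adjusted p = 0.352). With control 1 as the sole control it was 0.55 ± 0.16 (adjusted p = 0.287).

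The Cxcl14 promoter is shown because among the members' windows it holds both an interferon element and STAT letters. They begin at -172 and -191 from the start and stand in capitals in the 250 bases before it, chr13:56296552-56296801, minus strand of GRCm38.p6.
Cxcl14: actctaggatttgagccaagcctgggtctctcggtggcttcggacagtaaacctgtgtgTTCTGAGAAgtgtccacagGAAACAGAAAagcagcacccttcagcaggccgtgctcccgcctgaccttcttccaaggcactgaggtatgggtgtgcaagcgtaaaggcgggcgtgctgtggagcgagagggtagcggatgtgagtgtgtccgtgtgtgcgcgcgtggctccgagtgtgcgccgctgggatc

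The ligands made as transmembrane proteins act as adhesion molecules until proteases shed them, and on the brightest probe set both read lower on every labelled-knockout array. Cxcl16, the ligand of CXCR6 and a scavenger receptor, read 8.37, 8.54 and 9.01 among controls against 7.88, 7.95 and 7.90 (difference -0.73 ± 0.17, adjusted p = 0.143). Its second probe set gave -0.80 ± 0.16, adjusted p = 0.0864, and against control 1 alone the difference was -0.46 ± 0.14. Cx3cl1 (fractalkine), the ligand of CX3CR1, read 6.47, 5.91 and 5.82 against 5.78, 5.23 and 5.05 (difference -0.71 ± 0.24, adjusted p = 0.296). Its other probe sets overlapped between the groups and differed by -0.34 ± 0.16, -0.10 ± 0.24 and -0.15 ± 0.16. Unlike Cxcl12, Cx3cl1 was highest on control 1, and against that array alone the difference was -1.12 ± 0.31 (adjusted p = 0.271). Of the proteases known to shed both, Adam10 differed by 0.26 ± 0.096 (adjusted p = 0.333) and Adam17 by 0.40 ± 0.13 (adjusted p = 0.253).

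Ligands made by dendritic cells and helper T cells gave little signal. Ccl17 (TARC) overlapped at 5.92, 5.65 and 5.70 against 5.78, 5.63 and 5.66 (difference -0.070 ± 0.12, adjusted p = 0.857). Ccl1, Ccl20 and Ccl22 were dim and differed by 0.10 ± 0.12, 0.26 ± 0.21 and -0.0067 ± 0.19, and the mucosal ligand Cxcl17, also dim, by -0.050 ± 0.16.

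The labelled-knockout arrays were not alike in these ligands. Of the 10 ligands higher on every one of them, array 3 was the lowest of its group for 8 (Cxcl11, Cxcl5, Cxcl3, Cxcl2, Cxcl10, Ccl3, Ccl7 and Ccl11) and the highest for Ccl5 and Cxcl14. Among controls, control 1 was the highest for 7 of the 10. Of the 6 ligands lower on every labelled-knockout array, control 1 was the lowest control for 4 (Ccl27a, Cxcl12, Cxcl13 and Cxcl16).

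**Figure D2:**
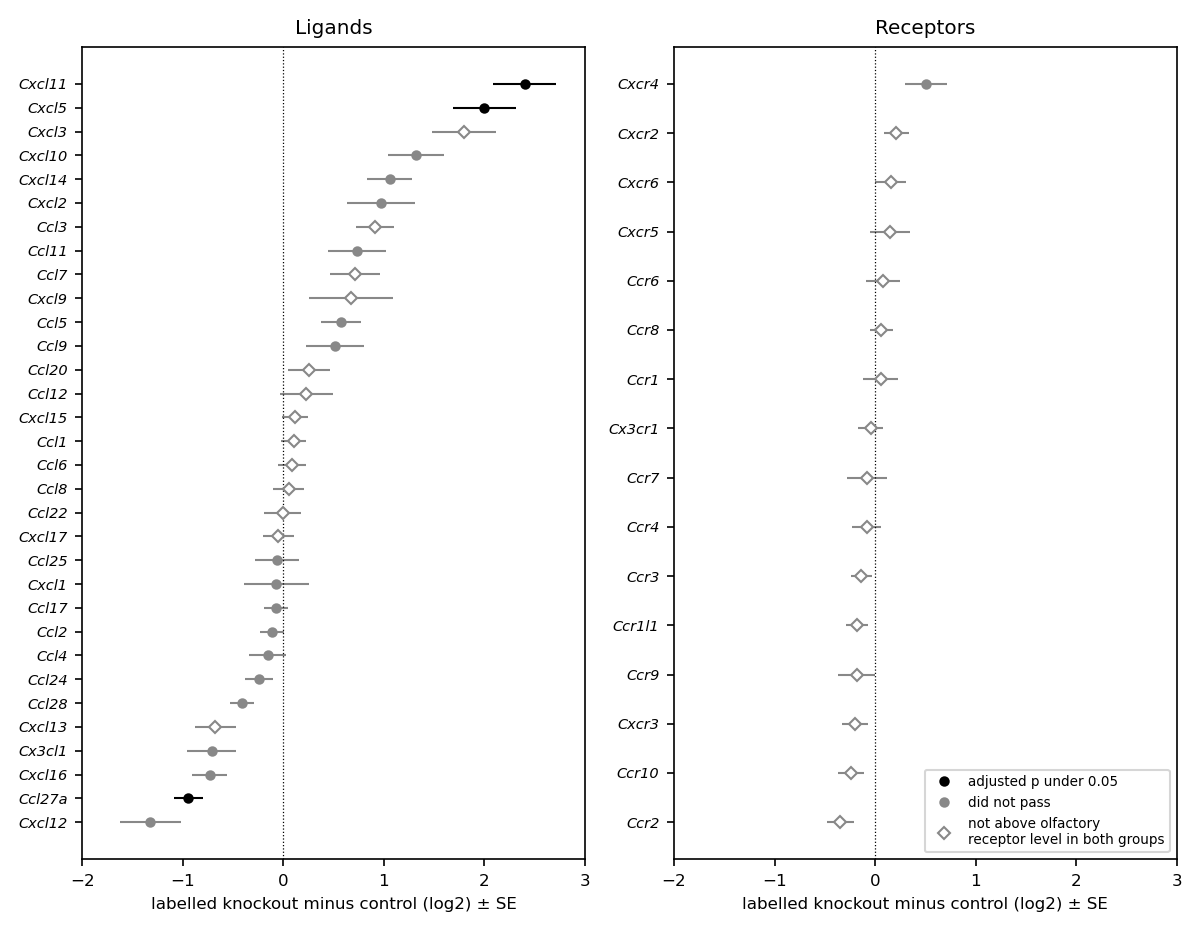
Differences in log2 expression (x axis, labelled-knockout minus control, ± SE from limma) of the 32 ligands (left) and 16 receptors (right), each ordered by difference. Ligands run from -1.32 (Cxcl12) to 2.40 (Cxcl11) and receptors from -0.35 (Ccr2) to 0.51 (Cxcr4); black marks the 3 genes past adjusted p 0.05, and open diamonds mark genes not above the olfactory receptor level in both groups.

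Most receptor genes were too dim to be told from background. No detection call was used, so levels were set beside 80 probe sets of olfactory and vomeronasal receptors, genes of the sensory epithelium of the nose, as a rough guide. Their 95th percentile was 4.26. Both group means lay above it for 19 ligands and 1 receptor, and neither did for 9 ligands and 14 receptors. In whole islets, fewer cells of a type and less RNA per cell cannot be told apart for any gene here. The receptor genes Ccr1l1, Ccr2 and Ccr3 read lower on every labelled-knockout array (18.75% of receptors, against 9.06% of all genes), each below the olfactory level, and 0 read higher on every one.

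Cxcr4, the receptor of CXCL12 on leukocytes and progenitors, was the receptor above that level in both groups. It read 9.73, 9.06 and 9.42 among controls against 9.72, 9.80 and 10.21, so control 1 overlapped with labelled-knockout array 1. The difference of 0.51 ± 0.21 did not pass (adjusted p = 0.376), and against control 1 alone it was 0.18 ± 0.24. Ccr2, the CCL2 receptor of monocytes, read 3.17, 2.81 and 2.81 against 2.64, 2.49 and 2.62 on its brightest probe set (difference -0.35 ± 0.13, adjusted p = 0.348). Its other probe sets differed by 0.061 ± 0.13, 0.28 ± 0.12 and -0.069 ± 0.12, so the direction was not shared. Against control 1 alone the brightest gave -0.58 ± 0.15.

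The other 14 receptors differed by -0.24 to 0.21. Among them, Cx3cr1, the fractalkine receptor of macrophages, stood at 4.09 ± 0.076 in controls and 4.05 ± 0.17 in the labelled-knockout group. Ccr7, which guides dendritic and T cells to lymph nodes, stood at 3.16 ± 0.40 and 3.08 ± 0.018. Ccr1, a receptor of CCL3 and CCL5, stood at 2.10 ± 0.054 and 2.15 ± 0.33.

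Beyond the symbol rule, 12 further chemokine genes were measured, of which 10 had higher means, beside 9165 of 18193 genes. With limma 0 of the 12 passed, and 0 had an unadjusted p under 0.05, beside 14% of all genes. Pf4 (platelet factor 4) read 5.44, 4.49 and 5.54 among controls against 5.59, 6.66 and 5.66 (difference 0.82 ± 0.38, adjusted p = 0.429), with control 2 low and labelled-knockout array 2 high. The scavenging receptor Ackr2 differed by 0.22 ± 0.10 (adjusted p = 0.452). Among 25 genes of receptor signalling and ligand processing 1 rose and 0 fell, beside 0.852% and 0.247% of all genes. That gene was Elmo1, an adaptor linking these receptors to Rac and cell migration, at 8.28, 8.54 and 8.49 against 9.76, 9.53 and 9.55 (difference 1.18 ± 0.13, adjusted p = 0.0103). Rgs1, which limits signalling from these receptors, differed by 1.04 ± 0.17 (adjusted p = 0.0546). Rgs16, a regulator of the same family, read lower on every labelled-knockout array, at 9.04, 8.98 and 8.60 against 7.98, 7.88 and 7.07 (difference -1.23 ± 0.26, adjusted p = 0.105).

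Targets of NF-kB and of interferon-gamma, known regulators of the inflammatory ligands, were set beside them. Of 20 NF-kB target genes 16 had higher means, beside 9165 of 18193 genes (median difference 0.34). Among the 20, 2 rose and 0 fell, beside 0.852% and 0.247% of all genes. Il6, the cytokine interleukin 6, rose from 5.46, 5.45 and 4.90 to 7.34, 6.62 and 6.67 (difference 1.61 ± 0.24, adjusted p = 0.0415). Icam1, the leukocyte adhesion molecule, rose from 8.22, 8.50 and 8.65 to 9.43, 9.65 and 9.62 (difference 1.11 ± 0.14, adjusted p = 0.0232). The list mean was 7.51, 7.56 and 7.46 on controls and 8.04, 8.02 and 7.64 on labelled-knockout arrays, array 3 being the lowest of its group. Lower means were those of Nos2, Nfkb2, Relb and Il1b, with differences of -0.30 to -0.076. The part of NF-kB or interferon-gamma in the ligand differences was not tested.

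Of 18 interferon-gamma target genes 14 had higher means, beside 9165 of 18193 genes (median difference 0.30). Among the 18, 1 rose and 0 fell, beside 0.852% and 0.247% of all genes. That gene was Gbp6, a guanylate-binding protein of cell-autonomous defence (difference 1.01 ± 0.14, adjusted p = 0.0279). The immunity-related GTPase gene Iigp1 differed by 2.04 ± 0.54 (adjusted p = 0.183). Averaged over the list, values were 7.84, 7.36 and 7.56 on controls and 8.06, 7.79 and 8.08 on labelled-knockout arrays, and control 1 lay above labelled-knockout array 2.

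**Figure D3:**
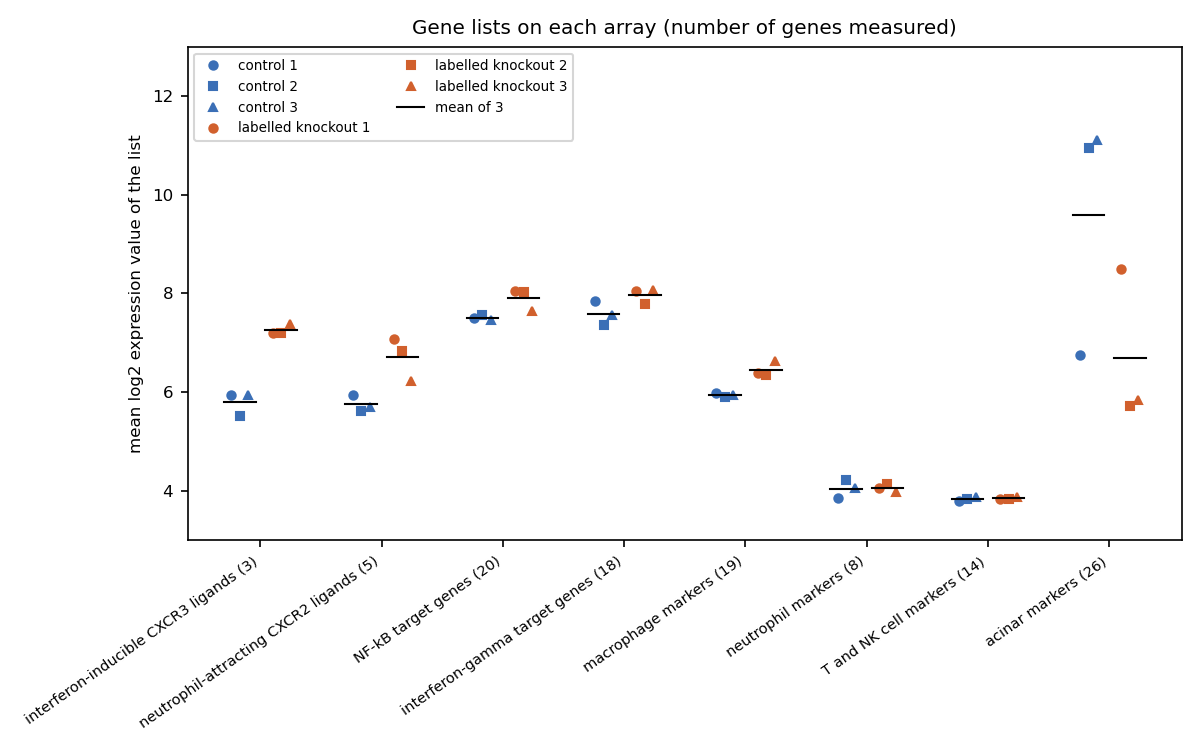
Mean log2 expression value (y axis) of gene lists on each array, with a point for each array and a bar for each group mean of 3 arrays. CXCR3 ligand means (3 genes) lie at 5.52 to 5.94 among controls and 7.20 to 7.38 among labelled-knockout arrays. Of these genes the dim Cxcl9 reads 2.88, 2.64 and 4.30 on labelled-knockout arrays 1 to 3. For Cxcl10 and Cxcl11 array 3 is the lowest of its group. Neutrophil and T cell markers overlap between the groups, and acinar markers vary most between arrays.

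Macrophage markers were among the lists with higher means, and labelled-knockout array 3 was the highest of its group for them. Of 19 markers 16 had higher means, beside 9165 of 18193 genes (median difference 0.53). Among the 19, 1 rose and 0 fell, beside 0.852% and 0.247% of all genes. The list means were 5.89 to 5.99 among controls and 6.35 to 6.62 among labelled-knockout arrays. Laptm5, a lysosomal protein gene of blood cells, rose (1.34 ± 0.11, adjusted p = 0.00425), and Mrc1, the mannose receptor of tissue macrophages, differed by 1.19 ± 0.20 (adjusted p = 0.0579). Like these, Ctss, Tyrobp, Aif1, C1qc, Fcgr1, Mpeg1, Cd68 and C1qb read higher on every labelled-knockout array, beside 12.1% of all genes. Itgam, C1qa and Cd163 had lower means (-0.30 ± 0.17, -0.21 ± 0.30 and -0.066 ± 0.13). The defining marker Adgre1 (F4/80) was below the olfactory level in both groups, as were 3 of the 19 in all, and Csf1r, the receptor of the macrophage growth factor, differed by 0.25 ± 0.20 (adjusted p = 0.674). The part of macrophage RNA in the ligand differences was not tested.

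Unlike those of macrophages, list means of markers of other leukocytes overlapped between the groups. Those of 8 neutrophil markers were 3.85 to 4.22 among controls and 3.98 to 4.14 among labelled-knockout arrays, and the smallest p were those of Mpo (0.34 ± 0.12, adjusted p = 0.331) and Csf3r (-0.23 ± 0.11, adjusted p = 0.458). T and NK cell markers (14 genes, 3.80 to 3.86 against 3.82 to 3.88) had 10 genes below the olfactory level. Their smallest p were those of Cd3g (-0.36 ± 0.14, adjusted p = 0.342) and Cd2 (-0.29 ± 0.13, adjusted p = 0.405), while the other CD3 chains Cd3d and Cd3e differed by 0.30 ± 0.21 and -0.012 ± 0.12, all of them dim.

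B cell markers (9 genes, 3.90 to 4.06 against 3.74 to 4.02) had 6 genes below the olfactory level, which weigh on the list mean. The immunoglobulin heavy chain gene Ighm, above that level, read 5.98, 6.16 and 6.34 among controls against 5.67, 5.54 and 5.56 without overlap (difference -0.57 ± 0.13, adjusted p = 0.118). Cd79a, a chain of the B cell receptor, differed by -0.61 ± 0.20 (adjusted p = 0.282) and the B cell transcription factor gene Pax5 by -0.11 ± 0.16 (adjusted p = 0.835). Dendritic cell markers (6 genes, 3.76 to 3.94 against 3.85 to 4.2) had the smallest p in Itgax (0.41 ± 0.12, adjusted p = 0.235) and Xcr1 (0.40 ± 0.30, adjusted p = 0.644). Over the lists of neutrophils, T and NK cells, B cells and dendritic cells, 0 genes passed with limma. An unadjusted p under 0.05 was found for 5, beside 14% of all genes.

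Markers of structural cells overlapped as well, for endothelium (12 genes, 7.12 to 7.79 against 7.54 to 7.78), lymphatic endothelium (5 genes, 6.91 to 7.29 against 7.05 to 7.16) and fibroblasts with stellate cells (10 genes, 5.14 to 6.05 against 5.54 to 5.94). The smallest p were those of Ptprb (0.72 ± 0.22, adjusted p = 0.235) and Pecam1 (0.27 ± 0.12, adjusted p = 0.408), of Lyve1 (-0.62 ± 0.18, adjusted p = 0.218) and Pdpn (1.03 ± 0.32, adjusted p = 0.249) and of Dcn (0.82 ± 0.17, adjusted p = 0.0972) and Rgs5 (0.33 ± 0.12, adjusted p = 0.324). In these 3 lists 0 genes passed with limma, and 6 had an unadjusted p under 0.05, beside 14% of all genes. Duct marker means (8 genes, 7.43 to 8.14 against 7.76 to 7.84) and beta cell marker means (10 genes, 11.67 to 12.00 against 11.46 to 11.76) overlapped. Of the duct markers 2 had higher and 6 lower means, and of the beta cell markers 3 higher and 7 lower. The chloride channel gene Cftr rose (3.92 ± 0.21, adjusted p = 0.000937), beside 0.852% of all genes. A fall was that of the zinc transporter gene Slc30a8 (-0.82 ± 0.12, adjusted p = 0.0394), beside 0.247% of all genes. Markers of alpha, delta and PP cells (7 genes, 10.69 to 10.84 against 10.06 to 10.13) did not overlap. Of them Ghsr (-1.17 ± 0.12, adjusted p = 0.0097) and Rbp4 (-0.73 ± 0.098, adjusted p = 0.0265) fell, beside 0.247% of all genes. PPAR-beta target genes overlapped (12 genes, 7.70 to 7.77 against 7.58 to 7.87), and 0 passed with limma. Of them 3 had an unadjusted p under 0.05, beside 14% of all genes, with the smallest p in Fabp4 (0.99 ± 0.17, adjusted p = 0.055) and Fabp3 (-0.91 ± 0.16, adjusted p = 0.0614). Among 26 acinar markers, 0 passed with limma and 9 had an unadjusted p under 0.05, beside 14% of all genes. The smallest p were those of Amy1 (-2.35 ± 0.75, adjusted p = 0.259) and Cela1 (-4.18 ± 1.49, adjusted p = 0.314). The second smallest p of the duct and beta cell lists were those of Cldn4 (-1.53 ± 0.33, adjusted p = 0.108) and Pcsk1 (0.54 ± 0.13, adjusted p = 0.152).

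**Figure D4:**
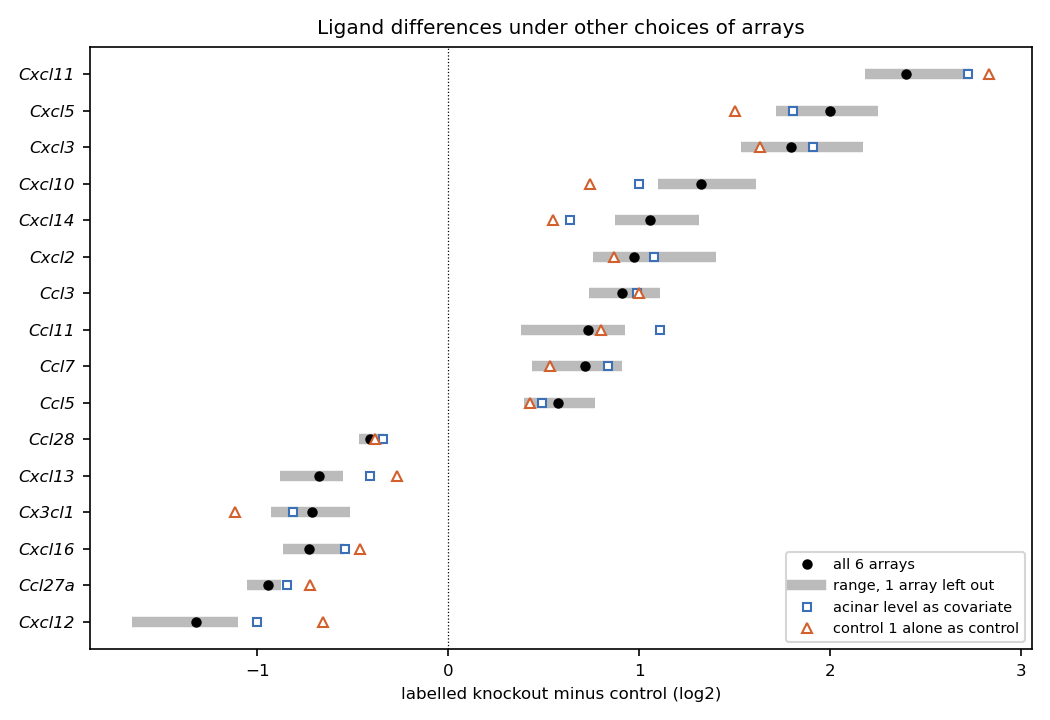
Differences in log2 expression (x axis) of the 16 ligands with an unadjusted p under 0.05, with all 6 arrays (black), as the range when 1 array is left out (grey), with the acinar marker level as a covariate (squares) and with control 1 as the only control (triangles). All keep their sign; Cxcl11 stays between 2.18 and 2.83, while Cxcl12 ranges from -1.65 to -0.66 and Cxcl14 from 0.55 to 1.31.

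The number of members past adjusted p 0.05 changed when 1 array was left out. With all arrays it was 3. Leaving out control 1 gave 6, control 2 gave 0 and control 3 gave 1. Leaving out labelled-knockout array 1 gave 0, array 2 gave 0 and array 3 gave 2. The calls over all probe sets moved as well, from 404 with all arrays to 783, 239 and 152 without control 1, 2 or 3. Without labelled-knockout array 1, 2 or 3 they were 161, 161 and 209. With limma, the fits that gave 0 still had 14, 15 and 16 members at an unadjusted p under 0.05. Both the acinar covariate and control 1 as the only control gave 0, with 12 and 11 members at an unadjusted p under 0.05. The 16 ligands whose groups did not overlap kept their direction in each of these fits, a direction that separate groups largely fix.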

How the data were processed

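Islet RNA of 6 mice was hybridised to 1-colour Affymetrix arrays. The deposited table holds log2 values made by the authors with RMA, per the submitters' processing notes; its version and settings are not given in the sources used here. RMA shares information between arrays, and its values do not keep the depth of a count. Gene names came from the platform annotation. The 64 manufacturer's control probe sets were removed. Groups were compared over the other 45037 probe sets by the moderated two-sided test of limma (version 3.58.1, R 4.3.3; lmFit, then eBayes, with a group term alone), with Benjamini-Hochberg adjustment over all of them and a threshold of 0.05. The fit was tested on simulated data, where 3.9% of 1.5-fold, 42.7% of 2-fold and 84.3% of 4-fold changes passed the threshold. The simulated noise was drawn independently for each probe set, without the shared acinar variation of these arrays. Promoter sequences and gene order came from RefSeq tables of GRCm38.p6.

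Members, lists, tests and alternatives were chosen with earlier results of these data known. Ligands are given by array where both group means lie above the olfactory receptor level or the unadjusted p is under 0.05, and receptors likewise; of the other lists, the 2 members with the smallest p and those past the threshold are named. Other genes were named after their values were seen (Adam10, Adam17, Csf1r, Adgre1, Cd3d, Cd3e, Pax5, Rgs16). The same holds for Nos2, Nfkb2, Relb and Il1b, and for Ctss, Tyrobp, Aif1, C1qc, Fcgr1, Mpeg1, Cd68, C1qb, Itgam, C1qa and Cd163. Alternatives were a replicate block, each array left out, other scalings, another variance prior, a filter on low values, an acinar covariate, control 1 alone and the second brightest probe set. A look at cysteine motifs of the ligand proteins was planned, but protein sequences were not used here.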

Additional observations from a re-analysis of the deposited data

How the results depend on the processing

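The count of members past adjusted p 0.05, 3 in the group comparison, was 0 with the acinar covariate, 0 without controls 2 and 3, 5 with an intensity trend and robust prior (Cxcl3 and Cxcl10 added), and 1 with the second brightest probe sets. It ranged from 0 to 6 with 1 array left out. Median centring and a further quantile normalization each gave 3, and the filter on low values gave 2. The replicate block gave 1 (Cxcl12, adjusted p = 0.0464) and moved the calls over all probe sets from 404 to 246. Same-numbered arrays correlated in their deviations by -0.054, 0.14 and 0.0045. With 3 arrays a group these values cannot decide whether the numbers pair the animals, and no label says so. The median difference of ligands was -0.070 with the filter on low values and -0.11 with the second brightest probe sets, and 0.062 to 0.14 with 1 array left out. That of receptors was 0.51 with the filter, which leaves Cxcr4 alone, 0.046 with the second brightest probe sets, and -0.090 to 0.00884 with 1 array left out. Ccr2 turned to 0.061 on its second brightest probe set. Of 235 such fits of 18 named members, 203 kept direction and side of the threshold, 23 lost the call, 8 gained it and 1 turned. All 23 losses were those of Cxcl11, Cxcl5 and Ccl27a, the members with a call in the group comparison. Most of the 203 were fits of members without a call that stayed without one. Apart from the changes that follow from fewer arrays or genes, the cause was not tested. With 3 arrays a group the precision is limited by their number, and dim genes have no detection call.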
